A study of Mus musculus with 4 samples.

Results

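A set of 8 miRNAs that mark cells other than macrophages in bone marrow was followed in small RNA libraries of bone marrow–derived macrophages (BMDMs). They are mmu-miR-143-3p, mmu-miR-145a-5p, mmu-miR-199a-3p, mmu-miR-199a-5p and mmu-miR-199b-5p of mesenchymal cells, mmu-miR-126a-3p and mmu-miR-126a-5p of endothelial cells and blood progenitors, and mmu-miR-150-5p of lymphocytes. They were chosen by name from general knowledge of where these miRNAs are made, and all 8 were found among the 1979 mature miRNAs of the deposited table. The cells were grown from marrow flushed out of femurs and tibias of mice of 6 to 7 months on a mixed 129/B6 background, for 8 to 9 days in medium with 10 ng/ml M-CSF, the growth factor that drives macrophage differentiation, and were harvested after 16 h in fresh medium without LPS. Wild-type cultures gave 2 libraries, WT A and WT B, while a homozygous deletion of mir-146a (KO) and a homozygous 3′F allele gave 1 each. In the 3′F allele a stretch of the 3′ region of mature miR-146a is exchanged with the opposite strand of its hairpin. Each mutant line goes back to targeted embryonic stem cells. The labels name 3 mice per genotype without saying whether a library pools them. The study checked differentiation by flow cytometry for macrophage surface proteins, and no library was made from the marrow before culture, from sorted cells or from any of the cell types that these miRNAs mark.

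miR-143 and miR-145a come from neighboring hairpins that are transcribed together and are best known from vascular smooth muscle, pericytes and fibroblasts. The miR-199a and miR-199b hairpins lie opposite the dynamin genes, and the copy next to the miR-214 hairpin is transcribed with it in developing mesenchyme. miR-126a sits in Egfl7, a gene of endothelial cells, where it favors signaling through VEGF receptors, and it is also kept by hematopoietic stem and progenitor cells. miR-150 is abundant in mature B and T cells and restrains the transcription factor c-Myb during lymphocyte development.

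Mature sequences of 3 of the 8 miRNAs were found in RefSeq (GRCm38.p6). They are shown with those of miR-199b-3p and miR-126b-5p, because identical and opposite-strand products decide how reads of these hairpins can be counted. Capitals mark the seed, bases 2 to 8 from the 5′ end.

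mmu-miR-199a-5p: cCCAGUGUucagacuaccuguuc

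mmu-miR-199a-3p: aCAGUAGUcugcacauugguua

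mmu-miR-199b-3p: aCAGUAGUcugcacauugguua

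mmu-miR-126a-3p: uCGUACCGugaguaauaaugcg

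mmu-miR-126b-5p: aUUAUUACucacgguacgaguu

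miR-199a-3p and miR-199b-3p are identical over all 22 bases, so that no read can be assigned to one of them by sequence. They share the seed CAGUAGU with each other and with 0 further names among the 1679 mature miRNAs listed in RefSeq. The seed of miR-126a-3p, CGUACCG, and that of miR-199a-5p, CCAGUGU, were found in 0 other listed names. No mature sequence of miR-199b-5p is in that list, so whether it shares the seed of miR-199a-5p could not be checked there. miR-126a-3p and miR-126b-5p come from opposite strands of the same place and overlap by 19 bases.

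On GRCm38 (GENCODE vM21), the Mir199a-1 hairpin lies at chr9:21496495-21496564 (minus strand), in an intron of Dnm2 on the opposite strand. The Mir199a-2 hairpin lies at chr1:162217814-162217923 (plus strand), within an exon of the antisense RNA gene Dnm3os and opposite an intron of Dnm3. The Mir214 hairpin follows it in Dnm3os on the same strand after 5444 bases. The Mir199b hairpin lies at chr2:32318460-32318569 (plus strand), opposite an intron of Dnm1. The Mir126a hairpin lies at chr2:26591357-26591429 (plus strand), within Egfl7 on the same strand and overlapping an annotated exon of it. The Mir150 hairpin lies at chr7:45121757-45121821 (plus strand), and no other annotated gene overlaps it. The Mir143 and Mir145a hairpins lie on 1 strand with 1301 bases between them, also outside other annotated genes. The build used for these libraries is not given in the sources used here, so positions were matched by name alone.

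The authors deposited estimated counts for each mature miRNA and precursor, with RPM (reads per 1000000 counts) beside them. Where 4 values stand in a row below, they are those of WT A, WT B, KO and 3′F in that order. Libraries held between 11410940 counts (WT B) and 19087640 counts (KO), and 3 counts, taken as the floor of detection, came to between 0.157 and 0.263 RPM. The targeted miRNA followed the labels, with 6253, 5485, 13.4 and 6.64 RPM of miR-146a-5p. Counts of shared reads were divided between lines, and the 3 lines of miR-199a-3p and miR-199b-3p each carry 1 part in 3 of the shared reads. Lines of the same mature name were therefore summed. Levels below are RPM with an exact 95% Poisson interval, which covers counting error only. Ligation during library construction favors some sequences over others, as the study notes, so levels of different miRNAs compare reads and not molecules. KO and 3′F have 1 library each, so no p-value was computed. In RNA from whole cultures, fewer cells of a type and less of a miRNA per cell cannot be told apart.

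All 8 miRNAs were low in all 4 libraries. Together they made up 29.7, 28.7, 29.5 and 24.8 RPM, or between 0.00248% and 0.00297% of a library's counts. The mean over WT A and WT B was highest for miR-126a-3p at 10.2 ± 0.594 RPM (SD, n = 2 libraries) and lowest for miR-145a-5p at 0.180 RPM. With the identical miR-199b-3p counted in, miR-199a-3p came to 10.3 RPM in WT, about level with miR-126a-3p. The sum of the 8, here and below, leaves out the reads deposited under miR-199b-3p, which were at 3.42 RPM in WT. Of the 8, 5 averaged 1 RPM or more across the libraries, the minimum set for the fold comparisons below, and they were among 445 of the 1979 miRNAs that did. Nearest to that minimum were miR-150-5p with a mean of 2.45 RPM above it and miR-126a-5p with 0.585 RPM below it.

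The macrophage and hematopoietic miRNAs stood far above them. miR-223-3p, made by cells of the myeloid lineage, was at 1574, 1466, 1636 and 1503 RPM. Within each library it was between 124 and 149 times the level of miR-126a-3p and between 51.1 and 60.7 times the sum of all 8. miR-142a-3p, made throughout the blood lineages, was between 1071 and 1721 RPM, and between 37.8 and 57.9 times that sum. The lowest of the 7 listed miRNAs in WT was miR-155-5p, which rises on inflammatory stimulation, at 70.8 ± 0.707 RPM (SD, n = 2 libraries). Next above it was miR-511-3p, whose hairpin lies in the macrophage mannose receptor gene, at 71.2 ± 7.88 RPM. Even these exceeded the sum of the 8 marker miRNAs, by between 1.87 and 2.53 times for miR-155-5p and by between 2.29 and 2.74 times for miR-511-3p. miR-21a-5p alone, the highest miRNA in every library at 333652 RPM or more, took at least 11318 times the summed level of the 8. No library was made from the cells that the 8 mark, so this ratio does not set macrophages against those cells.

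**Figure D1:**
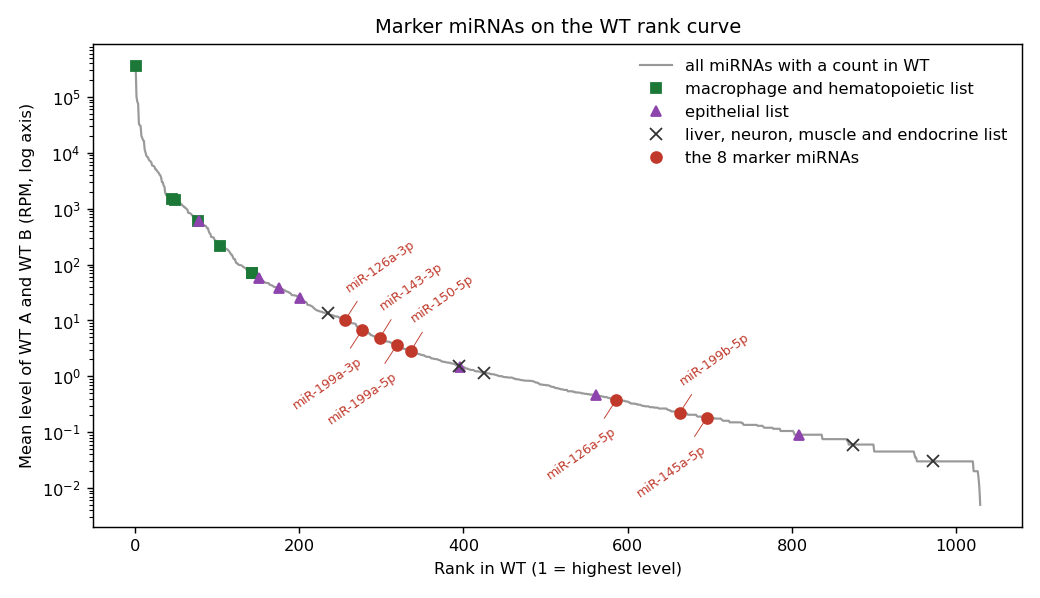
Mean level of each miRNA in WT A and WT B (RPM, log axis) against its rank in WT, for every miRNA with a count in WT. The 8 marker miRNAs (circles) lie between 10.2 and 0.180 RPM, below all 7 macrophage and hematopoietic miRNAs (squares, 70.8 RPM or more); listed miRNAs at 0 in both WT libraries are not drawn.

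miRNAs of tissues absent from the cultures gave a second scale. miR-122-5p, made almost only by hepatocytes, had 21, 21, 29 and 18 counts, or 1.23, 1.84, 1.52 and 1.11 RPM. miR-1a-3p of skeletal and heart muscle was at 1.15 ± 0.467 RPM in WT (SD, n = 2 libraries). The other listed muscle miRNAs were almost without reads: miR-133a-3p had 0, 0, 2 and 0 counts, miR-206-3p 2, 0, 0 and 0, and miR-208a-3p 0 in all 4 libraries. The endocrine miR-375-3p had 1, 0, 6 and 5 counts. miR-124-3p of neurons had 0 counts in all 4 libraries, with upper limits of the exact 95% interval between 0.193 and 0.323 RPM. miR-9-5p, listed for neurons but also known from stimulated monocytes, was at 12.2, 14.9, 10.2 and 11.6 RPM. It was above miR-126a-3p in WT A, WT B and 3′F and below it in KO, but their intervals overlap in every library except WT B. Over the whole list of 8 such miRNAs the sum was between 12.6 and 18.2 RPM, with 2 of 8 at 0 throughout. Of the 8 marker miRNAs, miR-145a-5p, miR-199b-5p and miR-126a-5p lay below miR-122-5p in every library, and the other 5 lay above it in every library. Reads were also left under miR-146a-5p, which is deleted in KO and altered in its 3′ region in 3′F. It stood at 13.4 RPM in KO (interval 11.8 to 15.2) and 6.64 RPM in 3′F (5.47 to 8.05). In KO this was above each of the 8 names, with miR-126a-3p next at 13.2 RPM (11.6 to 14.9). In 3′F only miR-126a-3p was higher among the 8 names, at 10.3 RPM. Where these reads come from was not tested.

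miR-126a-3p, the arm of the endothelial hairpin that restrains inhibitors of VEGF signaling, was the highest of the 8 names in every library, with the reads of miR-199a-3p and miR-199b-3p divided as deposited. It had 182, 112, 251 and 167 counts, or 10.7 (interval 9.17 to 12.3), 9.82 (8.08 to 11.8), 13.2 (11.6 to 14.9) and 10.3 RPM (8.81 to 12.0). WT A, WT B and 3′F lay close together, and KO lay above all of them. Normalised counts, taken over the library total, in KO were 1.27 times those of both WT libraries pooled (exact 95% counting interval 1.07 to 1.51), and in 3′F 0.999 times (0.821 to 1.21). WT B over WT A was 0.921 (0.721 to 1.17). The excess in KO is beyond counting error but well short of 2-fold, and the spread between KO cultures is not known. The rank of miR-126a-3p among all miRNAs ran from 231 in KO to 260 in WT B.

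The other arm of the hairpin, miR-126a-5p, rested on 7, 4, 16 and 12 counts. Its levels were 0.410, 0.350, 0.840 and 0.740 RPM, with KO and 3′F above both WT libraries. The ratio to WT was 2.17 in KO (0.946 to 5.17) and 1.92 in 3′F (0.775 to 4.80), and both intervals include 1. Of the reads from the 2 arms, the 3p arm held 96.3% in WT A (Clopper-Pearson 95% interval 92.5 to 98.5), 96.6% in WT B (91.4 to 99.1), 94.0% in KO (90.5 to 96.5) and 93.3% in 3′F (88.6 to 96.5). These intervals overlap in all 4 libraries. From the opposite strand, miR-126b-5p had 1 count in WT A and 0 elsewhere, and miR-126b-3p had 1, 3, 0 and 4 counts.

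miR-199a-3p, of the mesenchymal group, had 107.66, 84.66, 138.66 and 104 counts, or 6.30, 7.42, 7.26 and 6.42 RPM. KO and 3′F lay within the range of the WT libraries. The ratio to WT was 1.08 in KO (0.862 to 1.35) and 0.953 in 3′F (0.743 to 1.22). Because the sequence is shared, the quantity that the reads can carry is the sum with miR-199b-3p, which came to 161, 127, 208 and 156 counts. This sum was 9.42 (interval 8.03 to 11.0), 11.1 (9.28 to 13.2), 10.9 (9.47 to 12.5) and 9.63 RPM (8.18 to 11.3). Its interval overlaps that of miR-126a-3p in every library, so that the order of these 2 cannot be given.

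miR-199a-5p, from the other arm of the same hairpins, had 74, 34, 64 and 53 counts. Its levels of 4.34, 2.98, 3.36 and 3.28 RPM differed more between the WT libraries than between WT and either mutant. WT B over WT A was 0.687 (0.444 to 1.05), KO over WT 0.884 (0.639 to 1.22) and 3′F over WT 0.863 (0.609 to 1.21). miR-199b-5p, which unlike the 3p arm was counted apart, had 3, 3, 5 and 4 counts, or 0.180 to 0.260 RPM. Its share of the 5p reads of both families was 3.90% in WT A (0.811 to 11.0), 8.11% in WT B (1.70 to 21.9), 7.25% in KO (2.39 to 16.1) and 7.02% in 3′F (1.95 to 17.0). miR-214-3p, transcribed with the miR-199a-2 hairpin, had only 3, 5, 2 and 2 counts, and miR-214-5p at most 3.

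miR-143-3p was the only one of the 5 marker miRNAs averaging 1 RPM or more to differ at least 2-fold from WT A and from WT B in a mutant. It had 81, 56, 40 and 36 counts, or 4.74 (interval 3.77 to 5.90), 4.91 (3.71 to 6.37), 2.10 (1.5 to 2.85) and 2.22 RPM (1.56 to 3.08). The WT libraries were close to each other and well above KO and 3′F, which were close to each other too. The ratio to WT was 0.436 in KO (0.298 to 0.624) and 0.462 in 3′F (0.311 to 0.671), against 1.03 for WT B over WT A (0.722 to 1.47) and 0.943 for KO over 3′F (0.586 to 1.52). Its interval lay above that of miR-122-5p, the hepatocyte miRNA, in WT A and WT B and overlapped it in both mutants. On the log2(RPM + 0.1) scale the difference from the WT mean was -1.16 in KO and -1.09 in 3′F. With edgeR's TMM factors or DESeq2's size factors, 3′F no longer lay 2-fold below both WT libraries, and with a pseudocount of 1 RPM neither mutant did.

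miR-145a-5p, its neighbor in the same transcript and the smooth muscle regulator of the pair, was almost without reads. It had 3, 2, 0 and 0 counts, and in the mutants 3 counts would be 0.157 and 0.185 RPM. The WT counts are themselves at or under that floor, so no fold is given. Of the reads of miR-143-3p and miR-145a-5p together, miR-145a-5p held 3.57% in WT A (0.743 to 10.1) and 3.45% in WT B (0.420 to 11.9), against 0 of 40 reads in KO (0 to 8.81) and 0 of 36 in 3′F (0 to 9.74). The floor of 3 counts would be 7.50% and 8.33% of those reads, inside these intervals. At this depth a lower share in the mutants was not detectable. The passenger strands were at most 1 count, for miR-143-5p in KO and for miR-145a-3p in WT B and KO.

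In KO, 1 of the 5 marker miRNAs with a mean of at least 1 RPM was at least 2-fold lower than both WT libraries, against 14 of all 445 miRNAs (3.15%), and 0 of 5 were higher, against 10 of 445 (2.25%). In 3′F, 1 of 5 was lower, against 3 of 445 (0.674%), and 0 of 5 higher, against 2 of 445 (0.449%). The miRNAs lower by 2-fold in both mutants numbered 3 of 445 (0.674%), miR-143-3p among them. KO and 3′F were compared with the same WT libraries, so their falls are not independent of each other. Between WT A and WT B, 1 library against 1, 9 of 445 (2.02%) lay at least 2-fold apart, and against a single WT library 38 to 42 did in KO and 15 to 19 in 3′F. The median difference from WT over the 5 was -0.10 in KO and -0.13 in 3′F on the log2 scale, beside -0.01 and -0.08 over all 445.

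**Figure D2:**
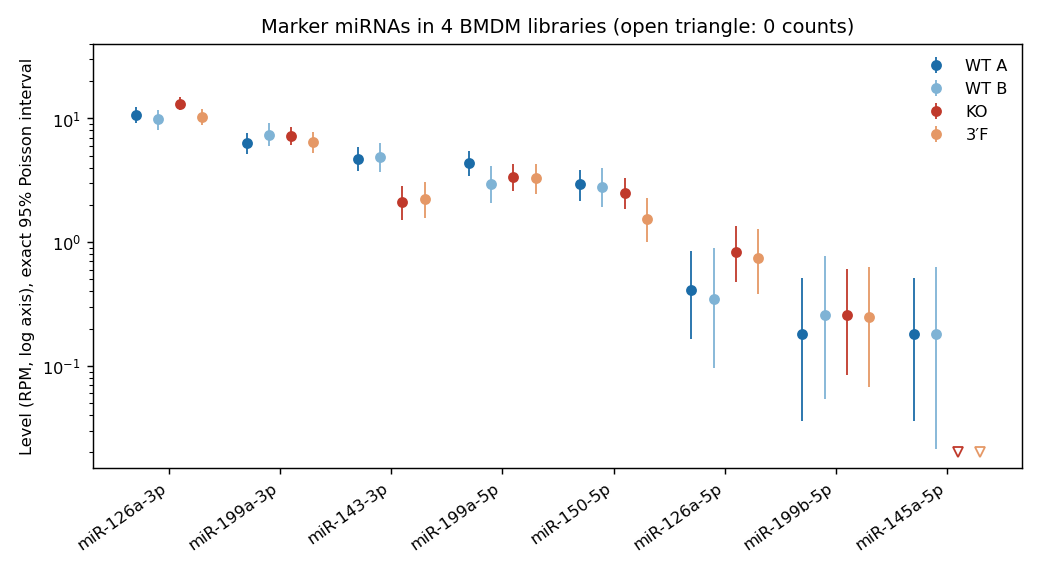
Level of each marker miRNA (RPM, log axis) in WT A, WT B, KO and 3′F, with exact 95% Poisson intervals of the counts and open triangles for 0 counts. miR-143-3p is at 4.74 and 4.91 RPM in WT and at 2.10 and 2.22 RPM in KO and 3′F, while the intervals of miR-199a-5p overlap in all 4 libraries.

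Other miRNAs moved along with miR-143-3p. Among 255 miRNAs with a mean of at least 10 RPM, those closest to it in their centred log2 profile over the 4 libraries were miR-486a-5p (Euclidean distance 0.22), miR-486b-5p (0.25) and miR-874-3p (0.49). miR-486a-5p, of red cell precursors, was at 74.1, 63.5, 32.3 and 35.2 RPM. The whole erythroid list of 4 (both miR-486 names, miR-451a and miR-144-3p) summed to 170, 159, 70.3 and 80.3 RPM, and none of its members was at 0 in any library. Of the 3 that averaged 1 RPM or more, 1 was 2-fold below both WT libraries in KO and in 3′F, miR-451a of maturing red cells with 18.7, 30.0, 4.09 and 8.03 RPM. Over all 445 miRNAs the share lower was 3.15% in KO and 0.674% in 3′F. The 2 miR-486 lines share reads. In the mesenchymal list of 10, 1 of the 4 that averaged 1 RPM or more was 2-fold lower in KO and in 3′F, miR-143-3p itself, with sums over the list of 19.1, 20.0, 17.0 and 15.6 RPM. What the erythroid levels have to do with miR-143-3p was not tested. For miR-126a-3p the closest were miR-450a-5p (0.05), miR-185-3p (0.09) and miR-374b-5p (0.11). With 4 libraries, such distances are a description only.

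miR-150-5p, the lymphocyte miRNA, had 50, 32, 48 and 25 counts. Its levels were 2.93 RPM in WT A (interval 2.17 to 3.86), 2.80 in WT B (1.92 to 3.96), 2.51 in KO (1.85 to 3.33) and 1.54 in 3′F (0.999 to 2.28). Both WT libraries lay above both mutants. This order was seen for 2 of the 5 marker miRNAs, miR-150-5p and miR-143-3p, and for 114 of all 445 (25.6%), and the opposite order for 0 of 5 and for 69 of 445 (15.5%). The ratio to WT was 0.874 in KO (0.599 to 1.26) and 0.536 in 3′F (0.328 to 0.848). In 3′F the interval excludes 1 on counting error, but the level was not 2-fold below both WT libraries, and KO over 3′F was 1.63 (0.985 to 2.76). Its interval overlaps that of miR-122-5p, the hepatocyte miRNA, in WT B, KO and 3′F, and lies above it in WT A (0.761 to 1.88). The other arm, miR-150-3p, had 1 count in WT A and 0 elsewhere.

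**Figure D3:**
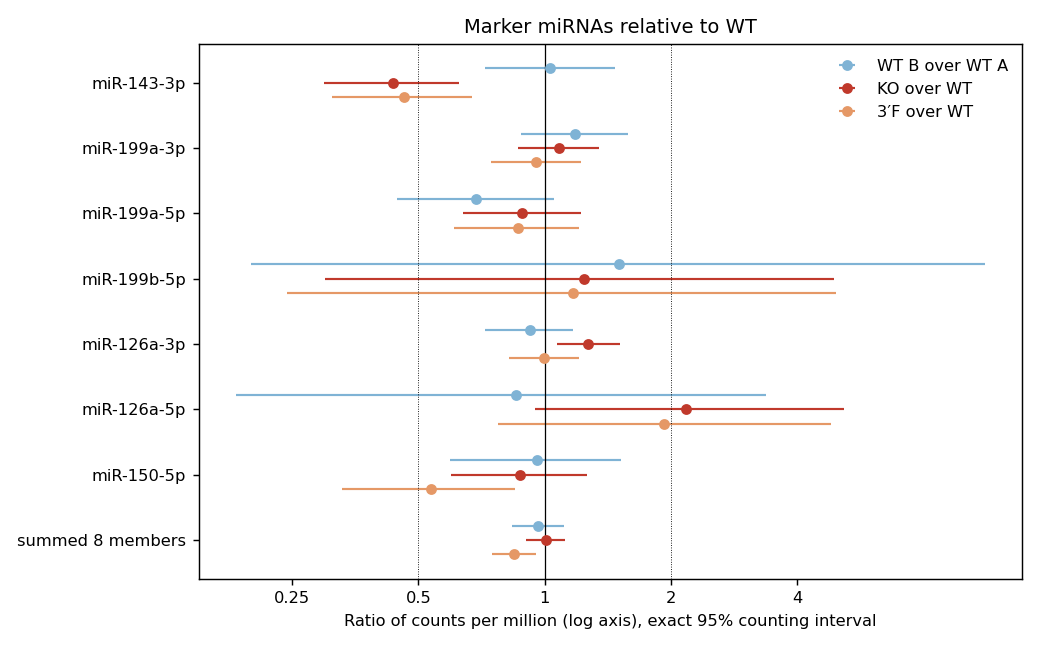
Ratio of normalised counts of each marker miRNA in KO, in 3′F and in WT B (log axis, solid line at 1, dotted lines at 0.5 and 2), the first 2 over both WT libraries pooled and the last over WT A, with exact 95% counting intervals; miR-145a-5p is left out because it has 0 counts in both mutants. The intervals of miR-143-3p lie below 1 in KO (0.298 to 0.624) and 3′F (0.311 to 0.671), and that of miR-126a-3p lies above 1 in KO (1.07 to 1.51).

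Ratios between marker miRNAs of the same library do not depend on how libraries are scaled. Of the summed reads of miR-143-3p and miR-126a-3p, miR-143-3p took 30.8% in WT A (Clopper-Pearson 95% interval 25.3 to 36.8), 33.3% in WT B (26.3 to 41.0), 13.7% in KO (10.0 to 18.2) and 17.7% in 3′F (12.7 to 23.7). Neither mutant's interval overlaps that of a WT library. The reference miR-126a-3p was itself 1.27 times WT in KO (1.07 to 1.51) and 0.999 times in 3′F (0.821 to 1.21). Its excess in KO lowers the shares there. Of the summed reads of miR-150-5p and miR-126a-3p, miR-150-5p took 21.6% in WT A (16.4 to 27.4), 22.2% in WT B (15.7 to 29.9), 16.1% in KO (12.1 to 20.7) and 13.0% in 3′F (8.61 to 18.6), and these intervals overlap. The sum of all 8, in contrast, is compared between libraries and does depend on scaling. In KO it was 1.01 times that of WT (0.903 to 1.12). In 3′F it was 0.845 times that of WT (0.748 to 0.953), against 0.966 for WT B over WT A (0.838 to 1.11). On the log2 scale, the 3′F ratio moved from -0.24 to -0.16 with edgeR's TMM factors or DESeq2's size factors.

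**Figure D4:**
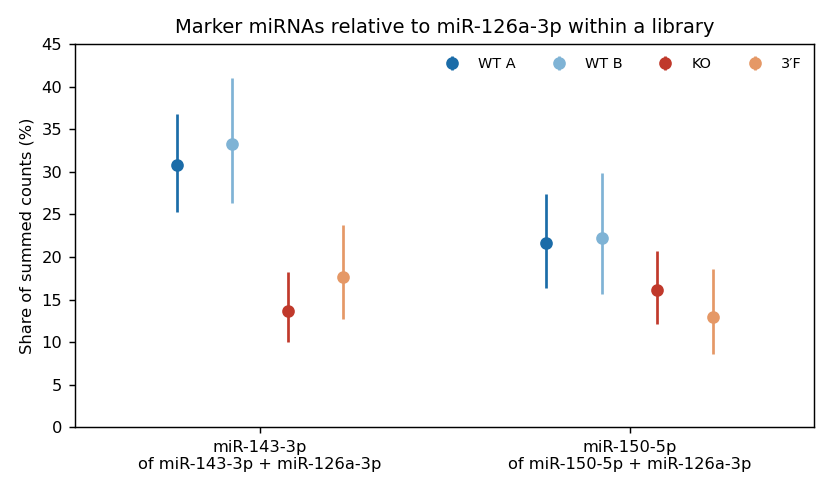
Share of miR-143-3p and of miR-150-5p in their summed counts with miR-126a-3p (%) in each library, with Clopper-Pearson 95% intervals. For miR-143-3p the WT libraries are at 30.8% and 33.3% and KO and 3′F at 13.7% and 17.7%, without overlap of the intervals. miR-126a-3p itself is at 1.27 times WT in KO, which lowers the shares there.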

How the data were processed

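Small RNA libraries were made with the NEBNext kit from total RNA of 4 BMDM cultures, and adapters were removed with cutadapt 1.8.3, per the submitters' processing notes. The aligner, counter and miRNA release are not given in the sources used here. The authors deposited estimated counts per mature miRNA and precursor (2129 lines) and RPM values, each count divided by the sum of its library's lines. Reads fitting several lines were divided: in 81 of 138 cases with a fractional line and counts under 10000, the lines of a miRNA summed to a whole number within 0.02 per line. Lines of the same name were summed as deposited RPM.

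Differences from WT are those of log2(RPM + 0.1) from the mean of both WT libraries. A miRNA counted as changed when at least 2-fold from each WT library in 1 direction, with a mean of at least 1 RPM. Ratios of normalised counts carry exact conditional binomial 95% intervals after rounding to whole counts. No test was made, since each mutant has 1 library. WT A and WT B are separate cultures per the study. The members, lists and settings were chosen with earlier results of these data known, and all 8 members, the arms and partners of their hairpins and the marker lists were named. The functions were tested on simulated data. Alternatives were 2 other scalings (edgeR 4.0.16, DESeq2 1.42.0), 1 line per miRNA, each WT library left out, a pseudocount of 1 RPM, a minimum of 10 RPM or none, and thresholds of 1.5-fold and 3-fold. Python 3.11.15, scipy 1.17.1 and R 4.3.3 were used.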

Additional observations from a re-analysis of the deposited data

How the results depend on the processing

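No paired analysis was possible because each mutant has 1 library, so that identifier A alone is shared with WT. The summed WT level of the 8 miRNAs, 29.2 RPM, became 24.0 with 1 line per miRNA, since only 1 of the 2 lines of miR-199a-3p and miR-199a-5p is then counted. The log2 ratio of that sum in KO, 0.01, became 0.06 with DESeq2's size factors, and in 3′F, -0.24, it became -0.16 with either other scaling. With a minimum of 10 RPM only miR-126a-3p of the 8 was eligible, so miR-143-3p could not be called. The number of marker miRNAs 2-fold from both WT libraries, 1 in each mutant, became 0 in both with that minimum, a pseudocount of 1 RPM or a 3-fold threshold. It became 2 in both without a minimum, where miR-145a-5p enters on 5 WT counts and the pseudocount, 0 in 3′F with either other scaling, and 2 in 3′F at 1.5-fold, where miR-150-5p enters. The log2 ratio of miR-143-3p ran from -1.19 to -0.91 in KO and from -1.11 to -0.86 in 3′F over the scalings, line rules, pseudocounts and WT libraries left out. Over all miRNAs, the 24 called in KO became 10 at 3-fold or with a minimum of 10 RPM, 66 at 1.5-fold and 78 without a minimum, and 38 to 42 without WT A or WT B. The 5 called in 3′F became 3 with a pseudocount of 1 RPM, 2 with a minimum of 10 RPM or at 3-fold, 25 at 1.5-fold and 67 without a minimum, and 15 to 19 without WT A or WT B. Counting both names of the shared sequence, chosen after seeing the data, raised miR-199a-3p but left its ratios to WT within the spread of the WT libraries. Of 127 values for single marker miRNAs, 110 moved by less than the SD of the WT libraries and 17 by more, 2 of them levels of miR-145a-5p, whose WT SD is 0. Ratios of miR-145a-5p were left out because all its counts are at or under the floor. Of 86 ratios, 6 changed sign, all with a WT library left out and none of them a 2-fold call, for miR-199a-3p (0.09 to -0.03 in KO, -0.09 to 0.03 in 3′F), miR-199a-5p (-0.10 to 0.17 in KO, -0.13 to 0.13 in 3′F), miR-199b-5p (0.14 to -0.04 in 3′F) and miR-126a-3p (0.01 to -0.05 in 3′F). Where not stated, the cause was not tested. At 0 to 16 counts, miR-145a-5p, miR-199b-5p and miR-126a-5p are limited by depth.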

Other observations

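Among the listed markers of other cells, 4 of 7 epithelial miRNAs had a higher WT mean than any of the 8 described above. miR-200b-3p, which keeps epithelial cells from turning mesenchymal, was at 512, 707, 358 and 510 RPM in WT A, WT B, KO and 3′F, and the whole list of 7 summed to between 444 and 844 RPM. Of its relatives, miR-200a-3p was at 57.6 ± 5.08 RPM in WT (SD, n = 2 libraries), miR-200c-3p at 38.5 ± 8.58 and miR-429-3p at 24.8 ± 5.93. miR-141-3p, in contrast, was at 0.460 ± 0.0283 RPM, and miR-205-5p, a miRNA of stratified epithelium, at 0.0900 ± 0.127 RPM. None of the 5 listed epithelial miRNAs with a mean of at least 1 RPM was 2-fold from both WT libraries in KO, where 24 of all 445 were, or in 3′F, where 5 were. The lines of the 4 carry fractional counts and so share reads with other lines, and where these reads come from was not tested.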
